A study of Mus musculus with 3 samples.

Results

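The genes described here are 9 genes of megakaryocytes and platelets, namely Pf4, Ppbp, Itga2b, Gp1ba, Gp1bb, Gp5, Gp6, Gp9 and Treml1, among 20546 genes named on the arrays. They were listed by name, and their probes were found by matching the RefSeq accession that each probe carries to mouse gene symbols. All 9 had a probe, 11 probes in all, because Gp1bb had 3 and the other 8 genes had 1 each. All 11 probes gave a signal well above background on all 3 arrays.

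The series asked how far a spleen could be turned towards a liver in living mice. Messenger RNA was measured on 3 Agilent mouse arrays with 1 dye, 1 array per group, all from female mice. The first group was spleen treated with SiO2 (the SiO2 spleen) and the second was spleen that received SiO2-3TF-3C (the SiO2-3TF-3C-treated spleen, drawn in the figures under the shorter label without "treated"); both were collected on day 82. The third was normal mouse liver, given by the labels as the positive control. The labels do not spell out 3TF-3C, and they name no strain, age or untreated spleen within these groups. The design text speaks of 5 samples pooled within each group, without saying whether this covers the liver. The day on which liver was taken is not stated. Each group was therefore 1 array. No spread between samples can be computed, no test was possible, and differences are given by size, with 2-fold (a log2 difference of 1) as the size of interest. The ± values below are the scanner software's own technical error of the spot signals and hold no variation between animals. The 3 comparisons share arrays and are not independent of one another.

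Megakaryocytes are the large marrow and, in mice, splenic cells that shed platelets, the anucleate fragments that start clotting. They arise from a progenitor that can also form red cells, and both lines use transcription factors such as GATA1, TAL1 and NF-E2. The surface of the platelet carries the GPIb-IX-V complex, which binds von Willebrand factor, the integrin αIIbβ3, which binds fibrinogen, and GPVI, which binds collagen, while its granules hold the chemokines PF4 and PPBP. The mouse spleen, unlike the adult human spleen, keeps making red cells and platelets in its red pulp. A normal adult liver makes neither, although platelets pass through its blood.

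The 9 genes were nearly level between the spleens, and 8 of them, all but Gp1bb, had their lowest level in liver. Between the SiO2-3TF-3C-treated spleen and the SiO2 spleen the log2 differences ran from -0.20 (Gp9) to 0.28 (Itga2b), with a median of -0.08, and 0 of 9 genes differed by 2-fold in either direction. Over all 17640 genes compared, 5.24% were higher by 2-fold or more and 1.39% lower by 2-fold or more, with a median of -0.15. Of them 39.2% lay within the range of the 9 genes, so levels this near between the spleens were common. Liver was lower by 2-fold or more than the SiO2 spleen for 7 of the 9 genes, with a median of -1.33, where 17.0% of 17359 genes were that much lower, 15.4% that much higher, and the median of all genes was -0.14. The SiO2-3TF-3C-treated spleen was higher by 2-fold or more than liver for 8 of the 9, with a median of 1.29; of 17213 genes 10.7% were that much higher and 15.9% that much lower. Gp1bb alone among the 9 stayed under 2-fold in all 3 comparisons.

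Marker genes of B cells, T cells and hepatocytes were read beside the tissue labels. All 6 B cell and all 6 T cell genes examined, which include Cd79a and Cd3e, were well above background on every array. Liver was among these arrays, so their presence alone cannot tell spleen from liver. For liver minus the SiO2 spleen, all 6 genes of each list were below 0. For the SiO2-3TF-3C-treated spleen minus liver, 5 of 6 in each list were above 0, and Cd79a (-0.28) and Cd4 (-0.41) were below. Cd4 was named after its value was seen. The 6 hepatocyte genes, which include Alb, Ttr and Apoa1, had a summed level of 0.204 times the array's 75th percentile in the SiO2 spleen, with 2 of 6 not well above background, against 159 in the SiO2-3TF-3C-treated spleen and 376 in liver. Between 77.2% and 81.3% of the spots on an array were well above background, and the number of saturated spots was 0 on all of them.

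Upstream sequences are shown for 6 of the genes because they carry letters that GATA and ETS factors bind, the factors that drive this lineage, and because they set Gp1bb beside its partners. RefSeq (GRCm38.p6) gave a start for all 9 genes, and the 250 bases before each start are printed 5′ to 3′ on the gene's own strand. Capitals mark matches on either strand. The GATA spellings searched were AGATAA and the variant that begins with T, TGATAA. For ETS factors the spelling was AGGAAG and the variant that begins with C, CGGAAG. The windows are chr5:90772185-90772434 (+) for Pf4, chr11:102469884-102470133 (-) for Itga2b, chr11:70638872-70639121 (+) for Gp1ba, chr16:30310782-30311031 (-) for Gp5, chr6:87777820-87778069 (+) for Gp9 and chr16:18622404-18622653 (-) for Gp1bb.
Pf4: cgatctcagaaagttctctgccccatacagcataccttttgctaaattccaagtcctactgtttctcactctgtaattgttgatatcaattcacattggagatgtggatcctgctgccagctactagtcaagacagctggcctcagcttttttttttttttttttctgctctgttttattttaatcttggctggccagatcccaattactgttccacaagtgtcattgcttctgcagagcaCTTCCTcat
Itga2b: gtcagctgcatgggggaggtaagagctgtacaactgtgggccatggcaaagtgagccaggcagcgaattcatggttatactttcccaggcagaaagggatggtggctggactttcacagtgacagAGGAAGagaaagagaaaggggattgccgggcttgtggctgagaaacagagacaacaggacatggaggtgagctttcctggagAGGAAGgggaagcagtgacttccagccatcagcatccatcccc
Gp1ba: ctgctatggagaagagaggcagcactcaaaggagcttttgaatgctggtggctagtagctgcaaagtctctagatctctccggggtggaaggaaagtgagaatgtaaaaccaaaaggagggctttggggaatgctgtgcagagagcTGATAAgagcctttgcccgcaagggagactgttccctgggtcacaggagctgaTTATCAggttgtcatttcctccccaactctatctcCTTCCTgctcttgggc
Gp5: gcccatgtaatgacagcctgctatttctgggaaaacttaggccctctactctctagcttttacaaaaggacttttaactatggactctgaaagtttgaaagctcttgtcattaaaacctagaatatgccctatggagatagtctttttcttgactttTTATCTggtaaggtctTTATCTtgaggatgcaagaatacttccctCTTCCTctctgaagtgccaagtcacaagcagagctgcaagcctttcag
Gp9: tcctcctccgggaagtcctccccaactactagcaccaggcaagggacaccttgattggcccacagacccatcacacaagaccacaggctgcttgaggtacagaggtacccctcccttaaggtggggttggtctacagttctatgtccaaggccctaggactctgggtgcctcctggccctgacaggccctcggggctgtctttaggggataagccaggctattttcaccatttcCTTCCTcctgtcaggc
Gp1bb: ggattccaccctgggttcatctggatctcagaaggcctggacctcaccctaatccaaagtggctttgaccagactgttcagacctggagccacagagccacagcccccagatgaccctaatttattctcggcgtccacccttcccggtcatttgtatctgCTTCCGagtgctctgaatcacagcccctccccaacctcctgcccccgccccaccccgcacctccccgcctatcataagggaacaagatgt

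The GATA letters were found in 3 of the 9 windows, 2 times in Gp1ba, 2 times in Gp5 and 1 time in Gp6, and 16.6% of 32851 RefSeq windows of the same length held them. In Gp1ba they lay at positions -104 to -99 and -51 to -46 from the start, and in Gp5 at -93 to -88 and -77 to -72. The ETS letters were found in 6 of the 9 windows, those printed above, against 39.2% of all windows. In Pf4, Gp1ba and Gp9 the ETS letters lay within 16 bases of the start. Gp1ba and Gp5 held both motifs, as did 5.49% of all windows. TGTGGT, which RUNX factors bind, was found in 1 window (Gp9, against 14.0%), and TGANTCA, the core of NF-E2 sites, in 2 (Ppbp and Gp1bb, against 6.75%). None of the 4 motifs was found in the Treml1 window. No 2 motif matches overlapped in a window. Such letters describe the sequence and do not show that a factor binds there.

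The chemokines of the α-granule come first. Pf4 encodes platelet factor 4, which binds heparin and is the gene most often used to mark megakaryocytes. Its log2 level, relative to each array's 75th percentile, was 3.54 in the SiO2 spleen, 3.38 in the SiO2-3TF-3C-treated spleen and 2.20 in liver. The spleens lay within the technical error of each other (-0.16 ± 0.20), and liver lay below both, at 39.7% of the SiO2 spleen (log2 difference -1.33 ± 0.20).

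Ppbp encodes pro-platelet basic protein, from which the neutrophil-attracting chemokine of platelets is cut, and it is the gene next to Pf4 on chromosome 5. Ppbp levels were 3.41 in the SiO2 spleen, 3.40 in the SiO2-3TF-3C-treated spleen and 2.26 in liver. The spleen arrays were nearly equal (-0.01 ± 0.20), and liver was at 44.9% of the SiO2 spleen (-1.15 ± 0.20). Pf4 and Ppbp thus differed from each other by less than their technical error in both comparisons with the SiO2 spleen.

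**Figure D1:**
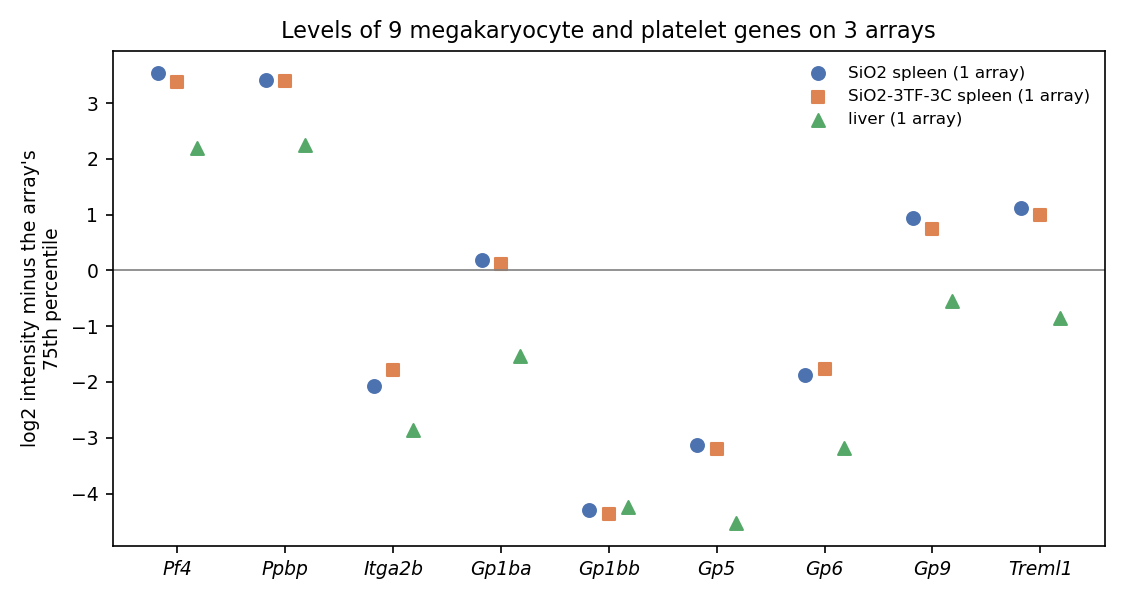
Level of each of the 9 genes (x axis) as log2 intensity minus the array's 75th percentile (y axis), 1 point per array, with no replicates; heights can be compared within a gene and not between genes, since each probe has its own brightness. The spleen points of each gene lie within 0.28 of each other, and the liver point lies below them for 8 of 9 genes, Gp1bb being the exception.

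Itga2b encodes the αIIb chain of the fibrinogen receptor, present from early in the megakaryocyte line. Its levels were -2.07 in the SiO2 spleen, -1.79 in the SiO2-3TF-3C-treated spleen and -2.86 in liver. It was the 1 gene of the 9 whose spleens differed by more than the technical error (0.28 ± 0.21), in the direction of the SiO2-3TF-3C-treated spleen. With normexp background correction that difference was 0.18, within the error. The quartiles of all genes between the spleens were -0.37 and 0.11, so differences larger than 0.21 in size were common. Liver was at 57.8% of the SiO2 spleen (-0.79 ± 0.21), short of 2-fold, and lay 2.10-fold below the SiO2-3TF-3C-treated spleen. Its partner chain Itgb3, which other cells also make, was at 2.66, 2.49 and 1.89 in the same order. Neither spleen differed from liver by 2-fold for Itgb3 (-0.77 for liver against the SiO2 spleen), although the mean over its probes gave -1.06.

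The GPIb-IX-V complex, through which platelets catch von Willebrand factor under flow, has 4 genes. Liver was lower by 2-fold or more for 3 of them, or for Gp1ba and Gp9 alone with normexp background correction. Gp1ba encodes the chain that binds von Willebrand factor. Its levels were 0.19 in the SiO2 spleen, 0.12 in the SiO2-3TF-3C-treated spleen and -1.53 in liver. The spleens were within error (-0.07 ± 0.20), and liver was at 30.3% of the SiO2 spleen (-1.72 ± 0.20).

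Gp9 encodes the small subunit needed to bring the complex to the surface. Its levels were 0.94 in the SiO2 spleen, 0.74 in the SiO2-3TF-3C-treated spleen and -0.55 in liver. Its spleen difference was the lowest of the 9 (-0.20 ± 0.20), and liver was at 35.6% of the SiO2 spleen (-1.49 ± 0.20).

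Gp5 encodes the subunit that thrombin cleaves. Its levels were -3.13 in the SiO2 spleen, -3.21 in the SiO2-3TF-3C-treated spleen and -4.53 in liver. The liver intensity of 16.9 was still well above background, where the median negative control spot stood at 1.85. Liver was at 37.9% of the SiO2 spleen (-1.40 ± 0.28), and the spleens were within error (-0.08 ± 0.21). With normexp background correction the liver difference of Gp5 was -0.18, which ends the 2-fold call.

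Gp1bb encodes the chain joined to GPIbα by disulfide bonds. The brightest of its 3 probes read -4.29 in the SiO2 spleen, -4.37 in the SiO2-3TF-3C-treated spleen and -4.24 in liver. The 3 arrays thus differed by at most 0.12, less than the technical error of 0.24 to 0.26, and liver was at 103% of the SiO2 spleen. The second probe gave differences of -0.12 between the spleens and 0.07 between liver and the SiO2 spleen. The dimmest probe gave -0.25 and 0.65. In these values no Gp1bb probe read lower for liver than for the SiO2 spleen, unlike Gp1ba, Gp5 and Gp9. All 3 probes were dim, with intensities between 8.18 and 29.1. Among the 3125 genes whose SiO2 spleen level lay between -6 and -4, as that of Gp1bb did, 4.19% were lower by 2-fold or more in liver and the median difference was 0.21. Among the 3472 genes between -4 and -2, where Gp5 and Itga2b lay, 17.2% were 2-fold lower. The part of low signal in the Gp1bb values was not tested.

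Gp6 encodes GPVI, the collagen receptor that signals through the Fc receptor γ chain. Its levels were -1.87 in the SiO2 spleen, -1.77 in the SiO2-3TF-3C-treated spleen and -3.19 in liver. The SiO2-3TF-3C-treated spleen was the highest array for Gp6 and Itga2b, yet for Gp6 the spleens were within error (0.10 ± 0.21). Liver was at 40.0% of the SiO2 spleen (-1.32 ± 0.21).

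Treml1 encodes TLT-1, a receptor stored in α-granules that reaches the surface on activation. Its levels were 1.11 in the SiO2 spleen, 0.99 in the SiO2-3TF-3C-treated spleen and -0.85 in liver. The spleens were within error (-0.13 ± 0.20). Liver was at 25.6% of the SiO2 spleen (-1.96 ± 0.20), the lowest share among the 9 genes.

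**Figure D2:**
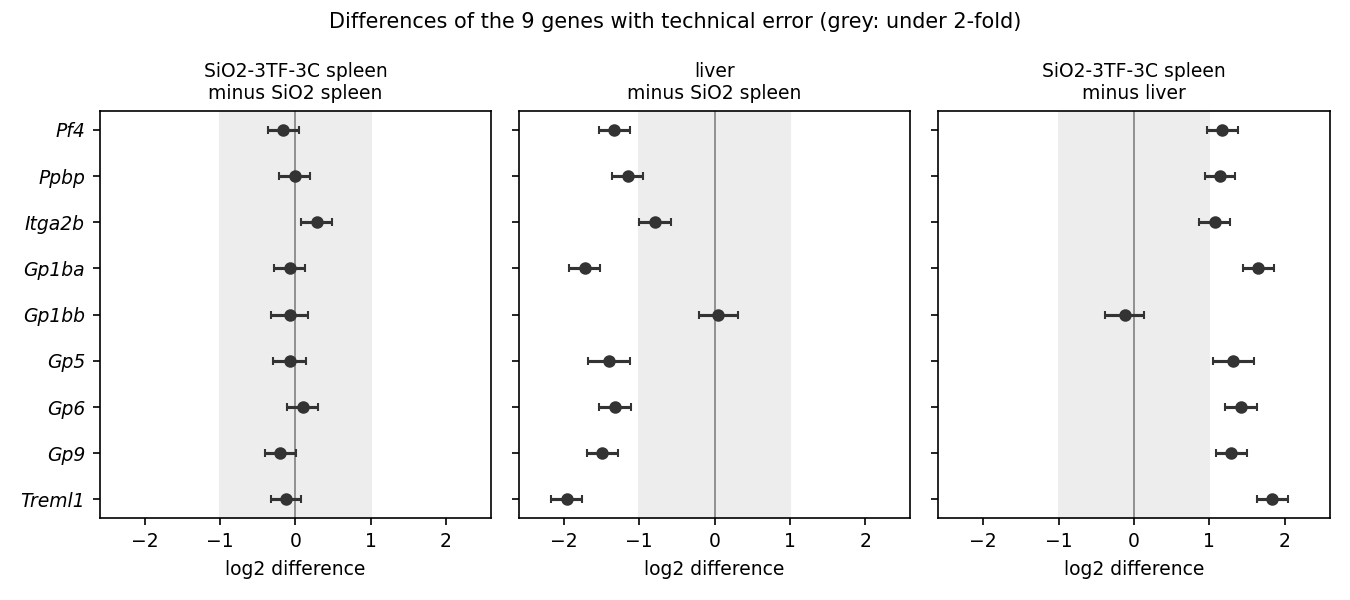
Log2 difference (x axis) of each of the 9 genes in the 3 comparisons, with bars for the scanner software's technical error of 1 array against 1 array; the grey band marks differences under 2-fold. All 9 points fall inside the band between the spleens, 7 lie below it for liver minus SiO2 spleen, and 8 lie above it for SiO2-3TF-3C-treated spleen minus liver.

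In order of the liver difference the genes ran from Treml1 (-1.96) through Gp1ba, Gp9, Gp5, Pf4, Gp6 and Ppbp to Itga2b (-0.79) and Gp1bb (0.05). From Treml1 to Ppbp each neighbouring pair differed by less than the technical error of that gap. The steps from Ppbp to Itga2b (0.36 ± 0.29) and from Itga2b to Gp1bb (0.84 ± 0.33) were larger than it. Between the spleens no neighbouring pair in the order differed by more than its error. The SiO2 spleen was the highest array for 6 of the 9 genes, the SiO2-3TF-3C-treated spleen for 2 and liver for 1. For those 6 genes the gap between the spleens was within technical error, and 65.6% of all 17640 genes were below 0 between the spleens. The count also depended on the scaling. With housekeeping scaling Pf4, Ppbp, Gp1ba, Gp5 and Treml1 were above 0 between the spleens, and Gp9 was at -0.02.

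These are bulk tissues, in which fewer megakaryocytes or platelets and less RNA per cell cannot be told apart. The values are also relative to each array's 75th percentile, so that they do not give the number of megakaryocytes in an organ. Hepatocyte genes moved with the spleen treatment by a median of 9.18 log2 units, and their part in the relative levels of the 9 genes was not tested. Markers of the other blood cells moved less. Over the SiO2-3TF-3C-treated spleen minus the SiO2 spleen, the median was -0.51 for 6 B cell genes, -0.55 for 6 T cell genes, -0.13 for 6 macrophage genes and 0.77 for 7 neutrophil genes, of which 1 passed 2-fold. Of all genes 5.24% were higher by that much. Summed over the 6 B cell genes, the level was 114 times the 75th percentile in the SiO2 spleen, 82.2 in the SiO2-3TF-3C-treated spleen and 49.5 in liver.

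Other genes of the platelet surface and its signalling lay mostly below 0 between the spleens, as most genes on the arrays did, and none passed 2-fold. Of 33 receptor and signalling genes, 26 were below 0, beside 65.6% of all 17640 genes. Of the 33, 18 lay below the lowest of the 9 genes (-0.20). That value stands between the lower quartile (-0.37) and the median (-0.15) of all genes, so a place below it was common. Their median was -0.30 (range -0.79 to 0.98), against -0.15 over all genes. The count past 2-fold was 0, where 5.24% of all genes were that much higher and 1.39% that much lower. P2ry12, the ADP receptor blocked by clopidogrel, differed by -0.58 between the spleens and by -1.05 for liver against the SiO2 spleen. P2ry1, the other ADP receptor, was the highest of the list between the spleens (0.98) and was higher in liver too (0.75). In liver 11 of the 33 were lower by 2-fold or more than in the SiO2 spleen and 0 higher, with a median of -0.81. Over all genes 17.0% were that much lower and 15.4% that much higher. Many of these genes, such as Syk, Lyn and Plcg2, are shared with lymphoid and myeloid cells, whose markers were also lower in liver. The medians for liver minus the SiO2 spleen were -1.18 for the B cell, -1.54 for the T cell and -1.36 for the neutrophil genes, and the part of those cells was not tested.

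Granule contents had a median of -0.01 between the spleens, and 1 gene of 20 passed 2-fold, beside 5.24% of all genes higher and 1.39% lower. That gene was F5, clotting factor V, which hepatocytes also make; it was higher by 2.12 in the SiO2-3TF-3C-treated spleen and by 5.34 in liver. The remaining granule genes lay under 2-fold. Vwf, the ligand of the GPIb chain that endothelium also makes, differed by 0.11 between the spleens and by -0.97 for liver. Thbs1, thrombospondin 1, differed by -0.01 and -1.13, and F13a1, the A chain of factor XIII, by 0.14 and -1.92. Slc35d3, which is needed for dense granules, differed by -0.02 and -1.43, the liver value being -0.74 with normexp. In liver 5 of 20 granule genes were lower by 2-fold or more and 1, F5, was higher, beside 17.0% and 15.4% of all genes.

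Of 15 genes of the platelet cytoskeleton and of megakaryocyte maturation, 0 differed by 2-fold between the spleens (median -0.26) and 8 were lower by 2-fold or more in liver (median -1.04). Of all genes 17.0% were that much lower in liver. Tubb1, the β1-tubulin of the platelet's marginal band and the member of this list most restricted to the lineage, differed by 0.07 between the spleens and by -1.22 for liver. Ccne1, a cyclin used when megakaryocytes copy their DNA without dividing and by dividing cells of every kind, differed by 0.92 between the spleens. Among 8 cell cycle genes, which include Mki67 and Top2a, 2 were higher by 2-fold or more in the SiO2-3TF-3C-treated spleen, beside 5.24% of all genes. Their median was 0.63. The 3 lists together held 68 genes, of which 1 (F5) was higher by 2-fold or more and 0 lower between the spleens. Of all genes 5.24% were that much higher and 1.39% that much lower. With so small a share lower, 0 of 68 is not particular to these genes.

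Most red cell membrane genes stood above the 9 genes between the spleens, and the globin genes did not. Of 18 red cell membrane genes, 13 were higher by 2-fold or more in the SiO2-3TF-3C-treated spleen, beside 5.24% of all genes. Their median was 1.87. Of the 18, 15 lay above the highest of the 9 genes (0.28), where the upper quartile of all genes was 0.11. Slc4a1, the band 3 anion exchanger, had levels of 2.16 in the SiO2 spleen, 4.06 in the SiO2-3TF-3C-treated spleen and 0.71 in liver. Epb42, the band 4.2 protein, had levels of -2.56, -0.15 and -4.08 in the same order. Both were highest in the SiO2-3TF-3C-treated spleen, by 1.89 and 2.40 over the SiO2 spleen, and lowest in liver. Of 16 genes of the wider red cell program, 7 were higher by 2-fold or more (median 0.87), among them Klf1, the master regulator of red cell genes (2.32), and Epor, the erythropoietin receptor (1.55). Hemgn, a nuclear protein of blood-forming cells, was the 1 gene of the 16 below 0 (-0.35). The 4 measured globin genes, whose messages were depleted from the RNA, had a median of -0.15 (range -0.22 to 0.15), and 0 of them passed 2-fold. In liver the red cell membrane genes had a median of -1.24 (10 of 18 lower by 2-fold or more), the wider red cell program one of -0.06 (4 of 16), and the 9 genes one of -1.33 (7 of 9). Of all genes 17.0% were that much lower in liver. With normexp background correction the liver medians were -0.43 for the membrane genes and -1.18 for the 9 genes. The difference between the lines was described and not tested, since each group was 1 array.

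**Figure D3:**
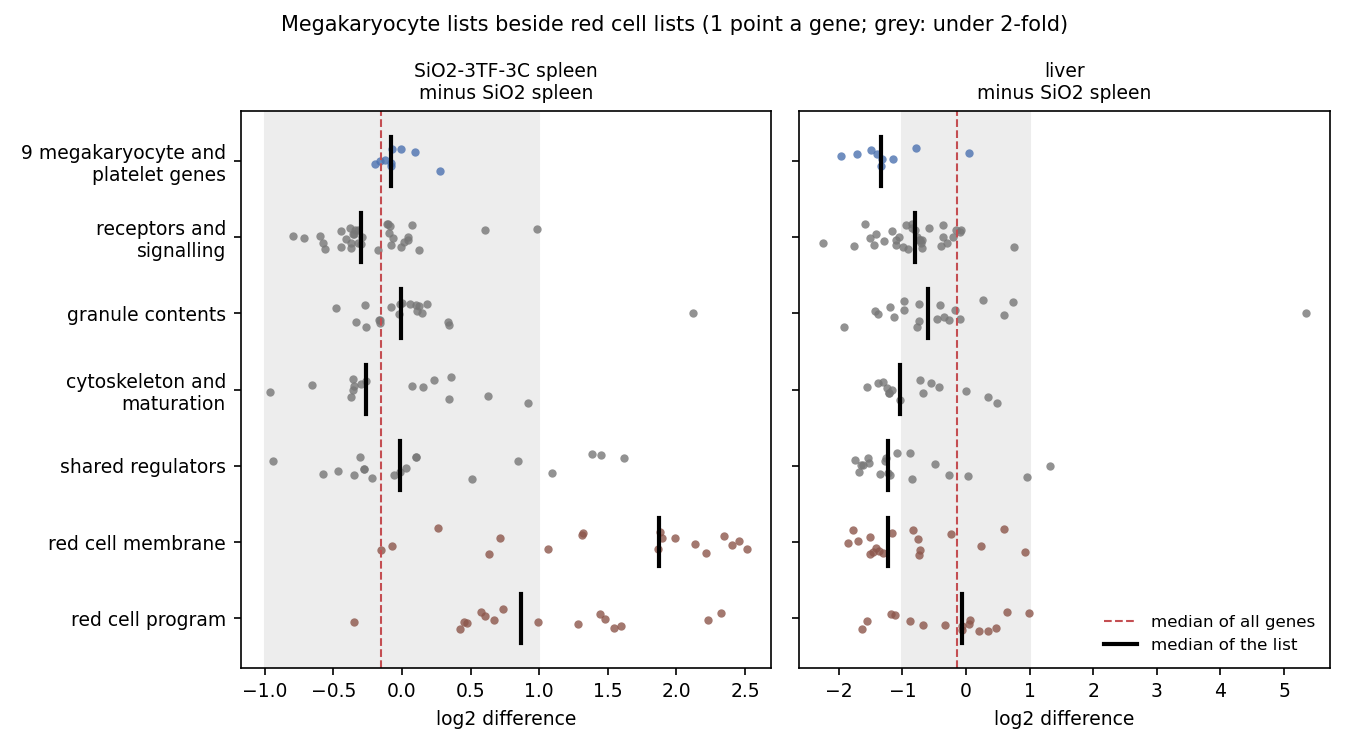
Log2 difference (x axis) of each gene, 1 point per gene, in the 9 megakaryocyte and platelet genes, 4 related lists and 2 red cell lists, for the SiO2-3TF-3C-treated spleen (left) and liver (right) against the SiO2 spleen; black bars are list medians and the dashed line is the median of all genes. On the left the 9 genes have a median of -0.08 against 1.87 for the red cell membrane genes, and on the right the medians are -1.33 and -1.24.

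The regulators that both lines share split between the spleens. Of 19 measured regulators 4 were higher by 2-fold or more in the SiO2-3TF-3C-treated spleen and 0 lower, with a median of -0.02. Of all genes 5.24% were that much higher and 1.39% that much lower. Gata1, which both lines need, had levels of 0.87, 2.25 and -0.82 in the SiO2 spleen, in the SiO2-3TF-3C-treated spleen and in liver (a spleen difference of 1.38 ± 0.20). Tal1, its partner in a shared complex, differed by 1.45 between the spleens, Gfi1b, a repressor needed in both lines, by 1.62, and Nfe2, which platelet release depends on, by 1.09. All 4 were lowest in liver.

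The other 15 measured regulators were under 2-fold between the spleens, 5 of them above 0 and 10 below. Of all 17640 genes compared, 65.6% were below 0, so this count is near the general share. Zfpm1, the cofactor of GATA1, differed by 0.84 and Mafg, a partner of NF-E2, by 0.51. Fli1, an ETS factor that favours megakaryocytes over red cells, had levels of 3.27, 2.70 and 1.73 in the same order of arrays (a spleen difference of -0.57 ± 0.20). Runx1, which is needed for megakaryocyte maturation, had levels of -1.04, -1.34 and -2.66 (-0.31 ± 0.20). Gata2, expressed in early progenitors and mast cells, differed by 0.10, Lmo2 by -0.22 and Ets1 by -0.28. Fli1, Runx1 and Ets1 are also made by lymphocytes, whose markers lay at -0.51 (B cell) and -0.55 (T cell). The part of lymphocytes in the values of these genes was not tested. Mecom was not well above background on any array. In liver 12 of the 19 were lower by 2-fold or more than in the SiO2 spleen and 1, Mafg (1.32), was higher. Of all genes 17.0% were that much lower and 15.4% that much higher.

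Thrombopoietin is the hormone that drives megakaryocyte growth, and the liver is its main known source. The probes for its gene, Thpo, were not well above background on any of the 3 arrays, liver included, so no difference is given. Jak2, a kinase that many cytokine receptors signal through, differed by -0.61 between the spleens and by -2.01 for liver. Beside 5.24% of all genes, 2 of 10 measured genes of this axis were higher by 2-fold or more in the SiO2-3TF-3C-treated spleen. They were Asgr1 (5.43) and Asgr2 (3.91), named after their values were seen, which form the hepatocyte receptor that clears aged platelets. Both were higher still in liver, by 8.16 and 7.38 over the SiO2 spleen.

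Genes outside these lists with the most similar pattern over the 3 arrays were found by the Euclidean distance between centred log2 profiles, taking the median profile of the 9 genes, which was that of Gp5. The nearest 5 were Dsn1 (distance 0.0063), Cxcr3 (0.0096), Fbxl12os (0.0114), Lhfp (0.0120) and Abcc1 (0.0121). Among the 9 genes Gp9 lay at 0.09, Pf4 at 0.10, Gp6 at 0.12, Ppbp at 0.18, Itga2b at 0.43 and Gp1bb at 1.18. Of 15870 other genes, 356 (2.24%) lay as near as Ppbp. With 3 arrays many genes share a profile, so nearness here is a description of 3 values.

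Processing moved the distance to liver more than that between the spleens. The median of the 9 genes between the spleens ran from -0.08 in several settings to 0.10 with housekeeping scaling and was also above 0 (0.01) with normexp background correction, so its direction changed with the setting. The liver median stayed between -1.51 and -1.18. Normexp with an offset of 50, which compresses dim probes, took Gp5 from -1.40 to -0.18, Gp6 from -1.32 to -0.64 and Itga2b from -0.79 to -0.39 for liver against the SiO2 spleen, while Pf4, Ppbp, Gp1ba, Gp9 and Treml1 remained lower by 2-fold or more. It also took Tubb1 from -1.22 to -0.41. Gata1, Tal1, Nfe2 and Gfi1b were higher by 2-fold or more in the SiO2-3TF-3C-treated spleen under every alternative that gave them a value (lowest 1.06, for Nfe2). Each had 1 probe and was well above background on all 3 arrays. Averaging over probes or changing the filter on dim genes could therefore not move these values.

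**Figure D4:**
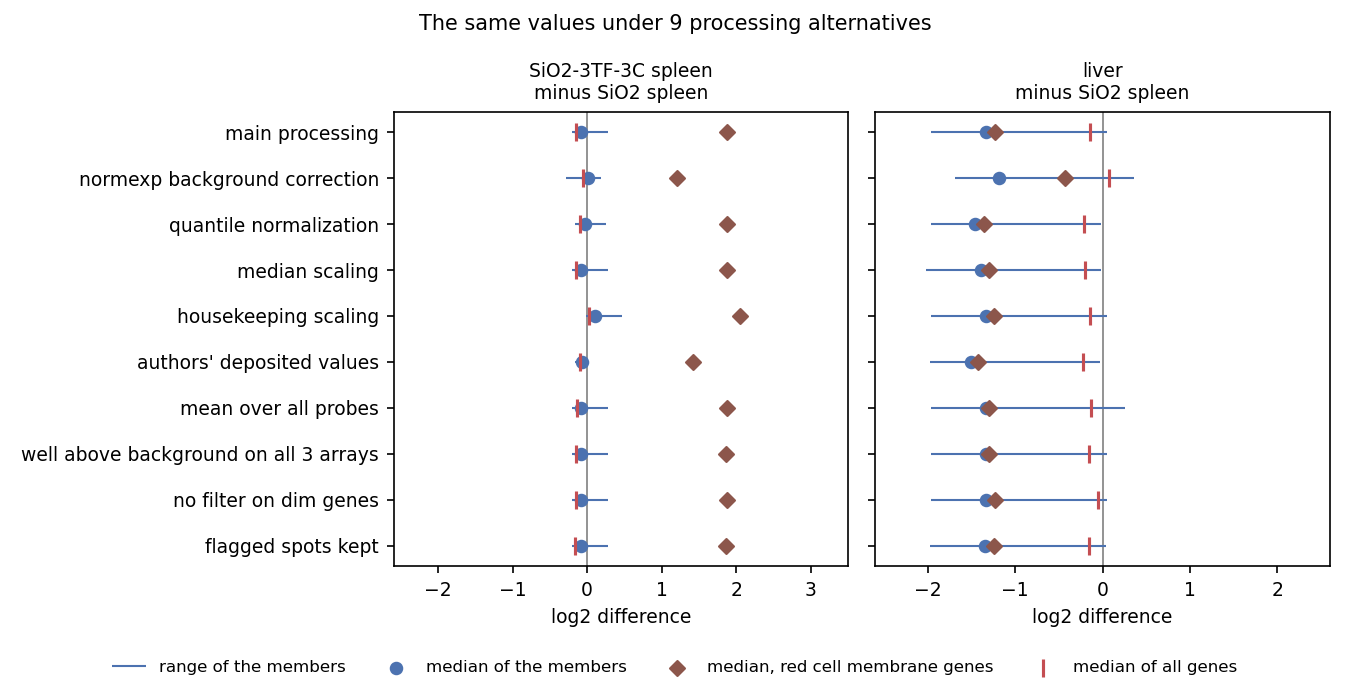
Log2 difference (x axis) under the main processing and 9 alternatives (rows) for the SiO2-3TF-3C-treated spleen (left) and liver (right) against the SiO2 spleen; blue lines span the 9 genes (6 with the authors' deposited values), blue dots are their medians, brown diamonds the medians of the red cell membrane genes and red ticks the medians of all genes. On the left the red cell median lies at 1.20 or above in every row, and the median of the 9 genes lies between -0.08 and 0.10.

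The authors' deposited table of log2 values was read for the members it lists in the form used here, which are Pf4, Gp1ba, Gp1bb, Gp5, Gp9 and Treml1. The authors' deposited table put Pf4 at 12.49 in the SiO2 spleen, 12.47 in the SiO2-3TF-3C-treated spleen and 11.02 in liver. In the authors' deposited table Treml1 stood at 10.04, 9.97 and 8.06, and the main Gp1bb probe at 4.64, 4.62 and 4.61. Liver was the lowest array for that Gp1bb probe in the authors' deposited table (-0.03 against the SiO2 spleen), unlike in the scanner values (0.05). No row under the probe names used here was found for Ppbp, Itga2b and Gp6 in the authors' deposited table, so they were not read there.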

How the data were processed

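RNA was purified with a kit for blood whose steps lyse red cells apart from white cells, globin messages were depleted, and Cy3-labelled cRNA was hybridised, per the labels' protocols. The deposited scanner files hold linear intensity, background-subtracted by Feature Extraction 11.0.1.1 per the file headers, while version 9.1 of Agilent Feature Extraction stands in the submitters' processing notes. The authors' deposited series table holds log2 values of 26049 probes, with no normalization method stated. Its 3 columns share the same median (5.91) and maximum (16.58), as columns do after quantile normalization. The headers give build mm9, so the RefSeq table (GRCm38.p6) was used for names, upstream sequence and the order of neighbouring genes, without placing the probes.

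Flagged spots were dropped (of 43020, 182 on the SiO2 array, 283 on the SiO2-3TF-3C array and 469 on the liver array), spots of a probe were averaged, and each array's 75th percentile of log2 intensity was subtracted. Of 39112 probes 27038 (69.1%) received a symbol, and the brightest probe stood for a gene. A gene well above background on 1 side of a comparison has a bound, set at the lowest such signal of the other array. The technical error is the software's error of the processed signal, combined over both arrays. Probes with several spots had a median SD of 0.0752 to 0.0979 log2 between spots. With 1 array per group there is no measure of biological spread, and precision is limited by there being 3 arrays. Scripts (Python 3.11.15, pandas 2.3.3, limma 3.58.1 in R 4.3.3) were tested on simulated data. Normexp used the median signal, because the mean signal is not among the columns used here.

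The 9 genes and all lists were chosen with earlier results of these data known. Named are the 9 genes, genes of the megakaryocyte lists by role, the first 3 measured genes of other lists and the 5 nearest profiles. Chromosomal neighbours are named for some of the 9 genes and not for others. Other names are marked as chosen after their values were seen. Some listed genes are counted but not reported here by name.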

Additional observations from a re-analysis of the deposited data

How the results depend on the processing

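The counts and medians of the 9 genes were recomputed under 9 alternatives, not all of which could move them. All 9 genes were well above background on all 3 arrays, so changing the filter on dim genes left their values as they were. Averaging over probes could move Gp1bb alone, since the other 8 had 1 probe each. The authors' deposited values lay near those of quantile normalization (Pf4 between the spleens -0.02 and -0.03), so they were nearly the same alternative. Median differences moved by less than the technical error in all 3 comparisons. Between the spleens the count past 2-fold was 0 under every alternative. The count of genes lower by 2-fold or more in liver against the SiO2 spleen ran from 5 to 7. The count higher by 2-fold or more in the SiO2-3TF-3C-treated spleen against liver was 8, but 5 with normexp background correction, where dim probes are compressed, and 5 of the 6 genes the authors' deposited table gave. No value of 2-fold or more changed sign. Relative to the median of all genes, the liver median of the 9 genes lay between -1.29 and -1.18. The all-gene median itself moved from -0.14 to 0.07 with normexp. The median of the red cell membrane genes between the spleens was 1.87, and 1.20 with normexp and 1.41 in the authors' deposited table. For liver against the SiO2 spleen it went from -1.24 to -0.43 with normexp, away from the 9 genes (-1.18), so the nearness of those medians in liver depends on the background correction. With normexp the liver difference of Gp5 went from -1.40 to -0.18. No paired analysis was possible because each group is 1 array.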

Other observations

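The nearest named genes on the chromosome, taken from the RefSeq order, did not all share the pattern of the 9 genes. Cxcl5, a neutrophil-attracting chemokine that lies next to Ppbp, differed by 0.25 between the spleens and by -1.44 for liver against the SiO2 spleen, while Cxcl3 on the other side of the pair was not well above background on any array. Next to Treml1, Trem2, a receptor of macrophages, differed by -0.24 and -1.11, and Nfya by -0.68 and -1.66. Ncr1, a natural killer cell receptor beside Gp6, differed by -0.34 and -1.39. Septin5, the neighbour of Gp1bb, differed by -0.15 and 0.51, and the neighbours of Gp9 and Gp5 stayed under 2-fold, with Rab43 at -0.15 and 0.33 and Atp13a3 at 0.36 and 0.34.

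Fibrinogen, the ligand of the αIIbβ3 integrin, is made by hepatocytes. Its chains exceeded the SiO2 spleen in the SiO2-3TF-3C-treated spleen by 6.69 log2 units for Fga and 9.57 for Fgb, and by 10.71 and 11.30 in liver, while the receptor genes Itga2b (0.28) and Itgb3 (-0.17) stayed near 0 between the spleens. On the SiO2 array Fgg did not stand well above background, and the SiO2-3TF-3C array was at least 1652-fold higher. Of 12 clotting genes of the liver, 9 were higher by 2-fold or more in the SiO2-3TF-3C-treated spleen, beside 5.24% of all genes.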
